A study of Mus musculus with 6 samples.

Results

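The *Bcl2* family decides whether the outer membrane of mitochondria is opened when a cell receives a death signal, and 9 of its genes were followed here from C2C12 myoblasts (day 0, D0) to myotubes formed from them over 5 days (D5). The members were taken by their gene symbol alone: *Bcl2*, *Bcl2l1*, *Mcl1*, *Bax*, *Bak1*, *Bbc3*, *Bcl2l11*, *Bid* and *Pmaip1*, which are 9 of the 54525 gene rows in each count table. C2C12 is an established mouse myoblast line, a single cell line without a tissue around it, and all 6 samples carried the same genotype (WT) and no treatment other than the change from growth medium with fetal bovine serum to medium with horse serum that starts differentiation. RNA-seq was performed on 3 samples of each stage, and since nothing states that these were separate passages of the line, p-values measure only the spread between these samples. Gene counts summed to between 36555048 and 40895840 in the D0 libraries and to between 25449759 and 25811300 in those of D5. The labels were checked against marker genes: 6 of 6 myotube markers (*Myog*, *Mymk*, *Ckm*, *Myh3*, *Acta1* and *Tnnt3*) rose, the muscle genes *Des*, *Myod1*, *Myf5* and *Cdh15* were present at both stages (*Des* higher and the other 3 lower at D5), and all 6 proliferation markers fell, from a summed 1893 to 1923 CPM (counts per 1000000) at D0 to 94.4 to 105.8 CPM at D5. Markers of adipocytes were at 1 count or fewer in every library. *Ibsp* of osteoblasts was at 0 throughout, *Bglap* and *Sp7* had at most 5 counts, and *Ptprc* and *Cd3e* of immune cells and *Cdh5* of endothelial cells had at most 3, with *Pecam1* at 7 or fewer. *Cd68* (124, 130 and 123 counts at D0 and 57, 63 and 46 at D5) and *Kdr* (90, 118 and 92 at D0 and 5, 6 and 5 at D5) were detected and fell. In bulk RNA, fewer cells of a kind and less RNA per cell cannot be told apart, and the part of remaining undifferentiated cells in the values below was not tested.

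The members fall into 3 classes. The pro-survival proteins BCL-2 (*Bcl2*), BCL-XL (*Bcl2l1*) and MCL-1 (*Mcl1*) hold the family in check by binding its other members. The effectors BAX (*Bax*) and BAK (*Bak1*) form the pores through which cytochrome c leaves the mitochondria. The BH3-only proteins PUMA (*Bbc3*), BIM (*Bcl2l11*), BID (*Bid*) and NOXA (*Pmaip1*) sense stress and either block the pro-survival proteins or activate the effectors. Released cytochrome c joins APAF1 to activate caspase 9, which starts the caspase cascade. Myotubes are known to withstand death stimuli better than myoblasts.

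Several members are textbook targets of stress-responsive transcription factors, p53 for *Bax*, *Bbc3* and *Pmaip1* and the FOXO factors for *Bcl2l11* and *Bbc3*, and MyoD binds E-boxes. The windows around the transcription starts of 8 members (13 windows of 300 bases, from 250 bases before to 50 after a start, RefSeq, GRCm38.p6) were therefore searched, that of *Pmaip1* not being analysed here, on both strands for the letters GTAAACA (FOXO), CAGCTG (the E-box MyoD prefers, contained in the general E-box CANNTG), TTGCATCA (CHOP and ATF4) and the p53 half-site consensus. Only 3 windows held a match other than the general E-box, and these are shown because they belong to members of opposite direction, *Bax*, which fell, and *Bcl2l11* and *Bbc3*, which rose. Capitals mark the matches, on either strand.
*Bax*, chr7:45466849-45467148, minus strand: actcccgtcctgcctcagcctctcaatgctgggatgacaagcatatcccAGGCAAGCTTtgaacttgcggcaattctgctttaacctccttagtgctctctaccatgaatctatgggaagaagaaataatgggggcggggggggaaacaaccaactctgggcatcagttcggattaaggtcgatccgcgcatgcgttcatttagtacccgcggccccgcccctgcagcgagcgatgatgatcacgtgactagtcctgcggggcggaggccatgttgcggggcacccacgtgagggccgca
*Bcl2l11*, chr2:128125788-128126087, plus strand: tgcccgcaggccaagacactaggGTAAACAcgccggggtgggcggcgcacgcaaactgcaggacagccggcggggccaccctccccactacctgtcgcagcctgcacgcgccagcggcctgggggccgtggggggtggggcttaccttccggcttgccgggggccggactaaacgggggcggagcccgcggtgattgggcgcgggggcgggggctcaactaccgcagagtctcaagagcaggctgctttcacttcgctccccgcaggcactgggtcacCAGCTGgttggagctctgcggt
*Bbc3*, chr7:16310011-16310310, plus strand: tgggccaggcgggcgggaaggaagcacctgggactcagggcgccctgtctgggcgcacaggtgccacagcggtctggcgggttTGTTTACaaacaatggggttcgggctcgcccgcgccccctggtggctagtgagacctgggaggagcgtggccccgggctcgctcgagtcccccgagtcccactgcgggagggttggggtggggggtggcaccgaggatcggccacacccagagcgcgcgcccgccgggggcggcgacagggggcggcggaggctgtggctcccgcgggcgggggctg
Counted from 0 at the first transcribed base, the match in *Bax* is to the p53 half-site and begins at -201. That in *Bbc3* is GTAAACA on the opposite strand at -167. The window of *Bcl2l11* holds GTAAACA at -227 and CAGCTG at 28. Among all 32851 windows of the same length, 8.36% held the p53 half-site, 3.65% GTAAACA, 16.3% CAGCTG and 0.895% TTGCATCA, and 72.3% held CANNTG, which was in 8 of the 13 windows of the members. By CG content 12 of the 13 windows were above the median window, which held 7 CG pairs, and the exception was the most downstream of the 3 starts of *Bcl2l1*.

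All 9 members passed the filter on low counts and all 9 differed between D0 and D5. The 3 pro-survival genes and the 4 BH3-only genes were higher in myotubes and both effectors were lower. The largest rises were those of *Bcl2l1* and *Bid*, each close to 3-fold, and the largest fall among the members was that of *Bak1*, to 43.8% of its D0 level. Differences were tested with edgeR's quasi-likelihood test on TMM-normalised counts, with Benjamini-Hochberg adjustment over 16290 genes and a threshold of 0.05. Most genes differ between these stages, and the members' count has to be read against that background: 82.9% of all genes tested passed the threshold, 42.2% as higher and 40.8% as lower at D5. In TMM-normalised CPM no D5 library overlapped a D0 library for any member, 7 lying above and 2 below. The same position was held by 42.2% of all genes tested above and by 41.1% below. The median log2 fold change was 0.83 over the members and 0.0022 over all genes.

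**Figure D1:**
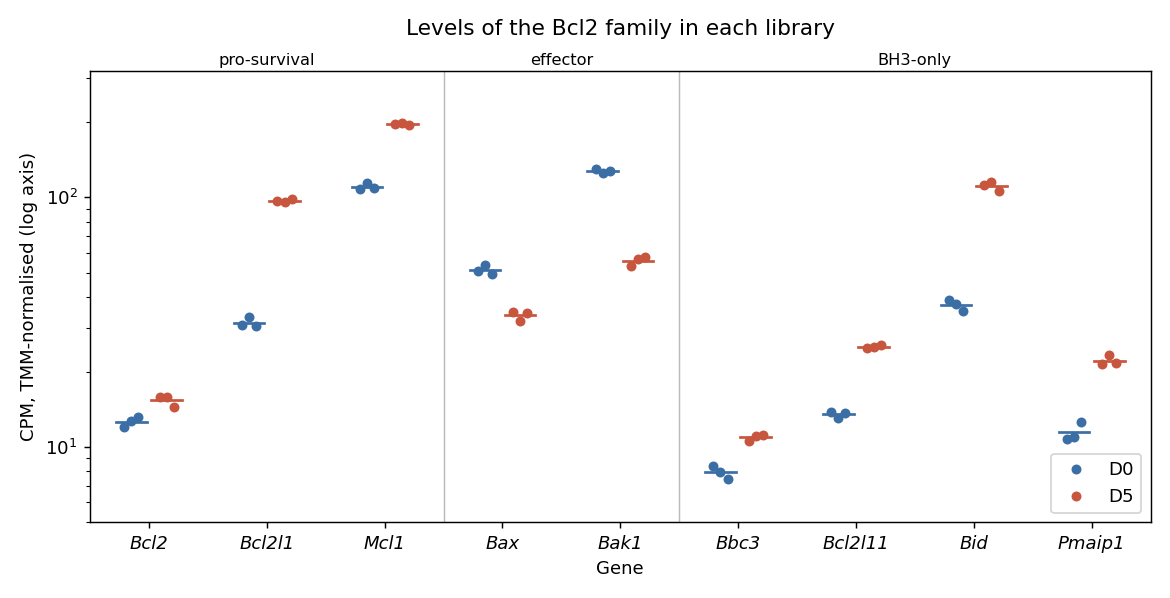
Level of each member in every library, as TMM-normalised CPM on a log axis, with D0 in blue, D5 in red, 1 point per library and a line at the mean of 3. The D5 points lie above the D0 points for the pro-survival and BH3-only genes and below them for *Bax* and *Bak1*.

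Among the pro-survival genes, *Bcl2l1* (ENSMUSG00000007659.18, GRCm38 chromosome 2 from 152780668 to 152831728, minus strand) had 30.9, 33.1 and 30.6 CPM in D0 replicates 1, 2 and 3 and 96.8, 95.6 and 98.6 CPM in D5 replicates 1, 2 and 3. The libraries of each stage lay close together and the stages were far apart. This was a 3.08-fold rise, or 1.62 on the log2 scale (SE, the standard error, 0.041, adjusted p = 2.4e-25 in edgeR's test). *Bcl2l1* encodes a long form that protects and a short form that promotes death, and counts per gene do not separate them.

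*Mcl1* (ENSMUSG00000038612.16, chromosome 3 from 95658788 to 95663176, plus strand), which encodes a short-lived protein, had 108.4, 114.0 and 108.8 CPM at D0 and 196.7, 197.9 and 195.5 CPM at D5. Every D5 library was above every D0 library, and the spread at D5 was small (196.7 ± 1.18 CPM, SD, n = 3). The rise was 1.78-fold, a log2 fold change of 0.83 (SE 0.033, adjusted p = 3.7e-20 in edgeR's test).

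The founding member *Bcl2* (ENSMUSG00000057329.7, chromosome 1 from 106538178 to 106714274, minus strand) changed least of the 9. It had 11.99, 12.7 and 13.2 CPM at D0 and 15.8, 15.8 and 14.5 CPM at D5. The stages came nearest to each other in D0 replicate 3 and D5 replicate 3, which still did not overlap in CPM but did in TPM (transcripts per 1000000 transcripts), at 5.07 and 4.88. Its log2 fold change was 0.28 (95% interval 0.145 to 0.419, adjusted p = 0.00033 in edgeR's test), and it was -0.27 with scaling to the ERCC spike-ins (adjusted p = 0.71 in edgeR's test). In size this change was small for these data, since 23.9% of all genes tested had a smaller absolute log2 fold change.

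The effectors moved the other way. *Bak1* (ENSMUSG00000057789.13, chromosome 17 from 27019810 to 27029009, minus strand) had 130.1, 124.7 and 127.0 CPM at D0 and 53.03, 56.6 and 57.8 CPM at D5. The highest D5 library was far below the lowest D0 library. On the log2 scale the difference was -1.19 (SE 0.039, adjusted p = 1.5e-22 in edgeR's test). Of the exonic length of *Bak1*, 25.5% is shared with *Ggnbp1* on the opposite strand. *Ggnbp1* had 53, 53 and 59 counts at D0 and 25, 32 and 23 at D5, against 4874, 5244 and 5116 and 1332, 1395 and 1437 for *Bak1*. How many reads *Bak1* gained or lost through the overlap was not tested.

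*Bax* (ENSMUSG00000003873.11, chromosome 7 from 45461697 to 45466898, minus strand) had 50.9, 53.8 and 49.2 CPM at D0 and 34.8, 32.1 and 34.4 CPM at D5. All D5 libraries were below all D0 libraries, at 65.8% of the D0 level. This gave a log2 fold change of -0.60 (SE 0.047, adjusted p = 7.0e-13 in edgeR's test). *Bax* shares 12.2% of its exonic length with *Gm45808* on the same strand, a gene with 0 counts in every library. Whether reads in the shared part were lost was not tested.

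All 4 BH3-only members rose. *Bid* (ENSMUSG00000004446.12, chromosome 6 from 120891930 to 120916853, minus strand), which links death receptors to mitochondria once caspase 8 has cut it, had 38.9, 37.4 and 35.1 CPM at D0 and 111.6, 115.7 and 106.2 CPM at D5. The stages were well separated, with a wider spread at D5 (111.2 ± 4.74 CPM, SD, n = 3). On the log2 scale the rise was 1.58 (SE 0.043, adjusted p = 1.2e-24 in edgeR's test). *Bcl2l13* on the opposite strand covers 17.7% of the exonic length of *Bid* and rose too, from 68.6 ± 0.484 to 137.1 ± 1.81 CPM (SD, n = 3 each), and how many reads the pair shares was not tested.

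*Pmaip1* (ENSMUSG00000024521.7, chromosome 18 from 66458533 to 66465565, plus strand), whose product NOXA binds mainly MCL-1, had 10.8, 10.99 and 12.6 CPM at D0 and 21.5, 23.3 and 21.7 CPM at D5. D0 replicate 3 stood somewhat above the other D0 libraries and far below any D5 library. The rise was 1.93-fold, a log2 fold change of 0.95 (SE 0.066, adjusted p = 4.6e-14 in edgeR's test).

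*Bcl2l11* (ENSMUSG00000027381.16, chromosome 2 from 128126038 to 128162547, plus strand), whose product BIM can bind every pro-survival member, had 13.8, 13.1 and 13.7 CPM at D0 and 24.8, 25.2 and 25.6 CPM at D5. The spread was below 1 CPM within each stage. Its log2 fold change was 0.90, or 1.87-fold (SE 0.057, adjusted p = 3.6e-15 in edgeR's test).

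*Bbc3* (ENSMUSG00000002083.13, chromosome 7 from 16308393 to 16318205, plus strand) changed least of the BH3-only members, with 8.41, 7.92 and 7.43 CPM at D0 and 10.6, 11.1 and 11.2 CPM at D5. The stages did not overlap. Its log2 fold change was 0.47 (95% interval 0.306 to 0.631, adjusted p = 3.9e-06 in edgeR's test), and it was -0.10 with scaling to the ERCC spike-ins (adjusted p = 0.90 in edgeR's test).

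The calls of all members but *Bak1*, and the directions of *Bcl2* and *Bbc3*, depend on how the libraries are scaled to each other. TMM normalisation sets the bulk of genes to no change, so a member that rose did so relative to the other genes. With library sizes taken from the ERCC spike-ins, synthetic RNAs added to each sample, the median of all genes moved to -0.58 and the members moved with it: *Bak1* was the only member past the threshold (log2 fold change -1.76, adjusted p = 0.0044 in edgeR's test). Of all 16290 genes tested, 5559 passed with this scaling, 1813 as higher and 3746 as lower. With the same scaling, the log2 fold change was 1.05 for *Bcl2l1*, 1.04 for *Bid*, 0.39 for *Pmaip1*, 0.33 for *Bcl2l11*, 0.27 for *Mcl1* and -1.19 for *Bax*. A change of library sizes shifts all genes by nearly the same amount. Relative to the median of all genes the members therefore stood nearly where they stood with TMM, from -1.18 for *Bak1* to 1.63 for *Bcl2l1*. The share of counts on spike-ins ran from 0.726% to 0.859% at D0 but from 0.720% to 2.09% at D5, so this scaling carried a wide spread between D5 libraries. The study's methods do not state how much spike-in was added or to what amount of RNA. Values with this scaling therefore cannot be read as RNA per cell.

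**Figure D2:**
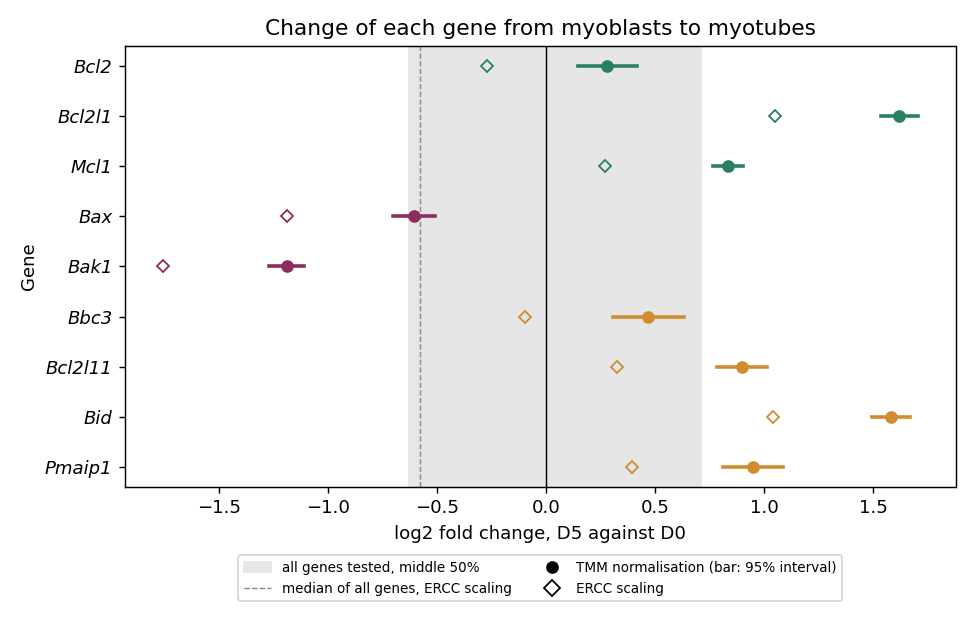
Log2 fold change of each gene (x axis, D5 against D0), with filled circles and 95% intervals for TMM normalisation and open diamonds for ERCC scaling. The circle of *Bak1* lies to the left and those of *Bcl2l1*, *Bid*, *Pmaip1*, *Bcl2l11* and *Mcl1* to the right of the grey band. The band is the middle 50% of all genes tested with TMM normalisation (-0.63 to 0.71). The circle of *Bax* lies at -0.60, just inside it, with those of *Bcl2* and *Bbc3*. The band does not apply to the diamonds, for which the median of all genes was -0.58.

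Ratios between members within a library do not depend on that scaling. Levels were compared between genes per length, as TPM computed from the union of each gene's exons. At D0 the order of the mean levels was *Bak1* (182.8 TPM), *Bax* (112.5), *Mcl1* (111.7), *Bid* (36.1), *Bcl2l1* (23.8), *Pmaip1* (14.5), *Bbc3* (12.9), *Bcl2l11* (5.83) and *Bcl2* (4.78 TPM). The ranges of *Bax* and *Mcl1* overlapped between libraries, as did those of *Pmaip1* and *Bbc3*. At D5 *Mcl1* led with 178.4 TPM, followed by *Bid* (97.1), *Bak1* (71.8), *Bax* (66.4), *Bcl2l1* (65.6), *Pmaip1* (25.1), *Bbc3* (16.0), *Bcl2l11* (9.74) and *Bcl2* (5.21 TPM), and the ranges of *Bak1* and *Bax* and those of *Bax* and *Bcl2l1* overlapped, while *Bak1* lay above *Bcl2l1* in every D5 library. By their means, *Pmaip1*, *Bbc3*, *Bcl2l11* and *Bcl2* thus held the lower places in the same order at both stages, and the genes above them were rearranged. With the longest transcript of each gene as its length, *Bcl2l1* had a mean of 93.6 TPM at D5, above *Bax* (76.1 TPM) and *Bak1* (57.9 TPM), so its place among them rests on the length used, and *Bbc3* (11.89 TPM) stood above *Pmaip1* (11.47 TPM) at D0.

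The sum of the 9 members, which unlike a ratio depends on the scaling, was 505 ± 7.05 TPM at D0 and 535 ± 8.21 TPM at D5 (SD, n = 3 each), with every D5 library above every D0 library, and 471.2 and 537.2 TPM with the longest transcript as length. Its composition differed between the stages. Effectors made up 58.9%, 58.1% and 58.5% of the members' TPM in the D0 libraries and 25.7%, 25.2% and 26.6% in the D5 libraries. The pro-survival share was 27.1%, 28.4% and 27.8% at D0 and 46.8%, 46.3% and 46.6% at D5. The BH3-only share was 14.03%, 13.5% and 13.7% at D0 and 27.6%, 28.5% and 26.9% at D5. No class overlapped between the stages. With the exonic union as length, within the pro-survival class *Mcl1* held 79.7 ± 0.136% at D0 and 71.6 ± 0.353% at D5 and *Bcl2l1* 16.9 ± 0.241% and 26.3 ± 0.442%, whereas *Bcl2* held 3.41 ± 0.183% and 2.09 ± 0.100% (SD, n = 3 each). These shares rest on the length: with the longest transcript *Bcl2l1* held 26.5% at D0 and 38.8% at D5 and *Mcl1* 69.7% and 59.1%.

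**Figure D3:**
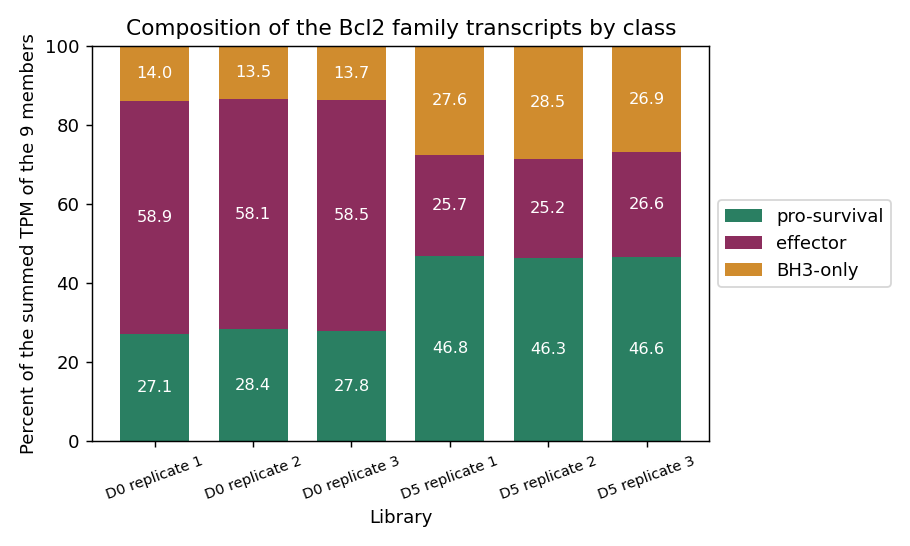
Percent of the summed TPM of the 9 members (y axis) that the pro-survival genes (green), effectors (purple) and BH3-only genes (orange) took in each of the 6 libraries. Effectors take from 58.1% to 58.9% in the D0 libraries and from 25.2% to 26.6% in the D5 libraries.

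Pro-survival transcripts stood at 0.460, 0.488 and 0.476 times the effector transcripts in the D0 libraries and at 1.82, 1.83 and 1.75 times in the D5 libraries, a 3.80-fold higher ratio of the means. The ratio of *Bcl2l1* to *Bak1* alone rose 7.02-fold and that of *Bcl2l1* to *Bax* 4.68-fold. Against the BH3-only genes the picture differed. The ratio of pro-survival to BH3-only transcripts was 1.93, 2.11 and 2.03 at D0 and 1.70, 1.62 and 1.73 at D5, so every D5 library was lower. This ratio leans on *Bid*, whose mean was 36.1 of the 69.4 TPM of the BH3-only genes at D0. At D5 it was 97.1 of 147.9 TPM. The mean of the pro-survival sum went from 140.2 to 249.2 TPM, 1.78-fold. Those of the other BH3-only genes went from 14.5 to 25.1 (*Pmaip1*), 12.9 to 16.0 (*Bbc3*) and 5.83 to 9.74 TPM (*Bcl2l11*). By these means each of them rose by a smaller factor than the pro-survival sum, so the lower ratio rests on *Bid*. The ratio without *Bid* was not tested. *Mcl1* and its partner *Pmaip1* stood at a ratio of 7.73 ± 0.738 at D0 and of 7.10 ± 0.287 at D5 (SD, n = 3 each), and the libraries of both stages overlapped. *Bcl2* to *Bcl2l11* went from 0.820 ± 0.0492 to 0.535 ± 0.0337, and *Bcl2l1* to *Bcl2l11* from 4.08 ± 0.289 to 6.73 ± 0.0907 (SD, n = 3 each). These ratios are descriptions of transcript levels, and with 3 libraries against 3 no exact permutation test of them could reach a two-sided p under 0.1.

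Of the 7 genes looked at that encode caspases, a family of proteases, 4 were higher and 3 lower at D5. Over all genes tested, 42.2% were higher and 40.8% lower. With ERCC scaling 2 of the 7 were higher (*Casp1* and *Casp4*) and 2 lower (*Casp8* and *Casp2*). With that scaling 1813 of all 16290 genes tested were higher and 3746 lower. *Casp8*, which cuts BID, fell from 37.0 ± 0.193 to 11.8 ± 0.721 CPM, and *Casp2* from 33.5 ± 0.873 to 15.4 ± 0.348 CPM (SD, n = 3 each). The log2 fold changes were -1.65 (adjusted p = 6.4e-22) and -1.12 (adjusted p = 3.8e-18) in edgeR's test. *Casp1* and *Casp4*, the inflammatory caspases, rose from near absence, *Casp4* from 0.202 ± 0.0538 CPM to 4.87 ± 0.528 CPM and *Casp1* from 2, 0 and 2 counts to 23, 30 and 36 counts (1.19 ± 0.267 CPM at D5, SD, n = 3 each). The initiator *Casp9*, named after its values were seen for its place in the pathway, had a log2 fold change of 0.48 that was -0.06 with ERCC scaling.

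Around the mitochondria, *Apaf1*, the scaffold on which caspase 9 is activated, fell from 91.9 ± 2.48 to 24.0 ± 1.20 CPM (SD, n = 3 each; log2 fold change -1.94, adjusted p = 2.6e-26 in edgeR's test). Of the 6 genes of the apoptosome and of released mitochondrial proteins it was the only one lower. Higher were 4, *Endog*, *Aifm1*, *Diablo* and *Htra2*, of which none passed with ERCC scaling. Over all genes tested, 42.2% were higher and 40.8% lower. *Endog* was at 1.02 on the log2 scale and at 0.43 with ERCC scaling, and the other 3 were below 0 there. *Cycs*, the gene of cytochrome c, stood at 94.7 ± 3.21 CPM in myoblasts and 93.3 ± 10.3 in myotubes (SD, n = 3 each) and did not pass the threshold (log2 fold change -0.02, adjusted p = 0.70 in edgeR's test), though it did as lower with total counts (-0.11). The channel genes *Vdac1*, *Vdac2* and *Vdac3*, which sit in the same membrane as BAX and BAK, had log2 fold changes of 0.23, 0.15 and 0.05, the last not past the threshold, and all 3 were negative with ERCC scaling. Of the caspase inhibitors, *Birc2* rose (log2 fold change 1.38, 0.83 and not past the threshold with ERCC scaling), while *Xiap* (-0.54), *Birc6* (-0.12) and *Birc5* (-5.24) fell. *Birc5* encodes survivin, which also works in cell division, and its fall stands beside that of the 6 proliferation markers. Among caspase substrates in the nucleus, *Dffa* rose by 1.31 on the log2 scale, *Parp1* fell by 0.20, and *Dffb* was at -0.12, not past the threshold. With ERCC scaling none of these 3 passed, and of the caspase inhibitors only *Birc5* did.

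*Bcl2l2*, a further pro-survival gene, rose from 28.3 ± 0.368 to 61.0 ± 3.03 CPM, and *Bok*, a relative of the effectors, fell from 50.5 ± 3.5 to 11.2 ± 1.06 CPM (SD, n = 3 each). The log2 fold changes were 1.11 (adjusted p = 6.6e-20) and -2.17 (adjusted p = 1.1e-23) in edgeR's test. With ERCC scaling *Bcl2l2* was at 0.52 and not past the threshold (adjusted p = 0.46), and *Bok* was at -2.71 (adjusted p = 9.2e-06). Of the other BH3-only genes tested 3 of 3 rose, a direction that 42.2% of all genes tested shared: *Bmf* from 5.25 ± 0.259 to 19.0 ± 0.434 CPM, *Bad* from 25.4 ± 0.861 to 30.2 ± 2.16 CPM, and *Bik* at a very low level from 0.551 ± 0.266 to 0.978 ± 0.261 CPM with overlapping libraries (SD, n = 3 each), and with ERCC scaling only *Bmf* passed (1.29), *Bik* being at 0.31 and *Bad* at -0.32. *Hrk* had at most 1 count in any library, *Bcl2a1a*, *Bcl2a1b* and *Bcl2a1d* had 0, and with *Bcl2l10* these were not tested. Of 6 more distant relatives and mitophagy receptors tested, 2 rose (*Bcl2l13* and *Bnip3*) and 4 fell, *Bcl2l12* and *Bnip2* among them with log2 fold changes of -1.03 and -0.38, and with ERCC scaling 1 of the 6, *Bcl2l12*, passed, as lower.

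Genes that act on the members were looked at next. Of 14 genes of p53 and its targets 10 rose and 4 fell, with a median log2 fold change of 1.10, where 42.2% of all genes tested rose. With ERCC scaling 3 were higher and 2 lower, with a median of 0.55. *Cdkn1a*, the cell cycle inhibitor that myogenic factors also induce, rose from 107.4 ± 3.29 to 2006 ± 54.3 CPM, *Gadd45a* from 53.8 ± 4.86 to 470.9 ± 20.01 CPM, *Ei24* from 47.7 ± 3.40 to 154.5 ± 2.89 CPM and *Perp*, at 3 or 4 counts a D0 library, from 0.0836 ± 0.0143 to 2.41 ± 0.335 CPM (SD, n = 3 each). *Ei24* was not past the threshold with ERCC scaling (1.14, adjusted p = 0.076 in edgeR's test). *Trp53* itself, named after its values were seen, fell from 111.2 ± 3.01 to 47.0 ± 0.957 CPM (SD, n = 3 each; log2 fold change -1.24, adjusted p = 5.2e-23 in edgeR's test). Of the p53 targets among the members *Bbc3* and *Pmaip1* rose and *Bax* fell. *Foxo3* and *Foxo4*, regulators of *Bcl2l11*, rose by 1.03 and 1.18 on the log2 scale, *Foxo1* by 0.49, and *Ddit3*, the gene of CHOP, fell by 0.51. With ERCC scaling none of them passed the threshold, at 0.46 for *Foxo3*, 0.63 for *Foxo4*, -0.07 for *Foxo1* and -1.09 for *Ddit3*. Of 4 genes for turnover of the MCL-1 protein, *Fbxw7* (1.01), *Mul1* (0.94) and *Usp9x* (0.38) rose on the log2 scale, and *Huwe1* was at -0.05 and not past the threshold. With ERCC scaling none passed, at 0.45 for *Fbxw7*, 0.35 for *Mul1* and -0.18 for *Usp9x*, and with upper-quartile or total-count scaling 1 of the 4, *Huwe1*, was lower.

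In the death receptor arm, 4 of 7 genes passed the threshold as higher and 3 as lower. The weakest of these calls was *Tradd*, named after its values were seen (log2 fold change 0.16, adjusted p = 0.040 in edgeR's test), and 3 genes were higher with DESeq2, upper-quartile and total-count scaling and 1 higher and 2 lower with ERCC scaling. *Fas* rose from 1.46 ± 0.153 to 13.8 ± 1.05 CPM (SD, n = 3 each; log2 fold change 3.24, adjusted p = 6.4e-22 in edgeR's test). *Cflar*, which holds caspase 8 back, had a log2 fold change of 0.44 (-0.14 with ERCC scaling), *Tnfrsf10b* of -0.72 and *Ripk1* of -0.71. Over all 13 lists, 63 of 71 genes were tested. Of these 38 were higher, 21 lower and 4 not past the threshold, where 42.2% of all genes tested were higher and 40.8% lower. The median log2 fold change of the 63 genes was 0.34. With ERCC scaling 7 were higher and 10 lower, where 1813 of all 16290 genes tested were higher and 3746 lower.

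**Figure D4:**
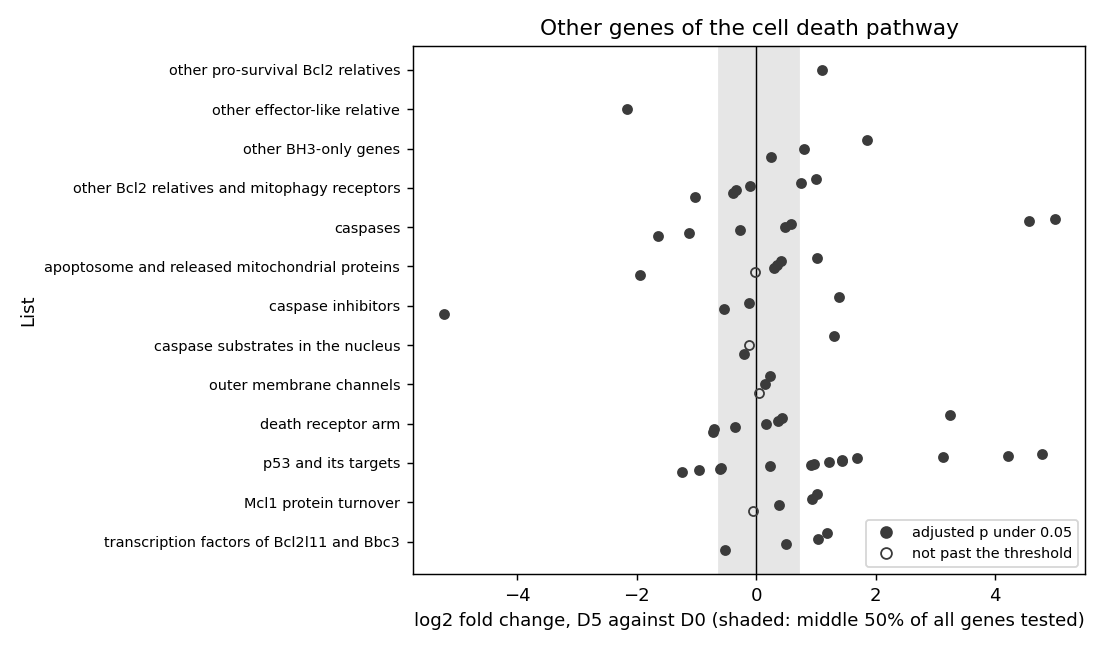
Log2 fold change (x axis, D5 against D0) of the 63 tested genes of the pathway, 1 row per list, with filled points for genes past the threshold and open points for the 4 that were not. The lists spread to both sides of the grey band of the middle 50% of all genes, with *Birc5* at -5.24 on the left and *Casp1* at 5.0 on the right, a fitted value for a gene with 2, 0 and 2 counts at D0.

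The gene with the largest change among the members, *Bcl2l1*, was also set beside all other genes tested by the distance of their log2 CPM over the 6 libraries. The nearest were *Sc5d* (distance 0.174), *Cuedc1* (0.209) and *Gyg* (0.233), with mean levels of 33.0, 33.1 and 30.0 CPM at D0 and 94.7, 97.0 and 93.0 CPM at D5. With 2 stages this likeness reflects a similar level and a similar rise, and nothing more was read from it. Sequence shared with other genes differed between the members: of the 50-base stretches of their transcripts, from 0% (*Bcl2l1*, *Mcl1*, *Bbc3* and *Pmaip1*) to 17.1% (*Bak1*) also occurred in transcripts of another gene, on either strand. The share was 16.4% for *Bid*, mostly with *Bcl2l13*, and 8.51% for *Bax*.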

How the data were processed

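RNA was sequenced from 3 C2C12 myoblast (D0) and 3 myotube (D5) samples. The authors deposited read counts per gene, made with featureCounts on GRCm38 and not normalised. The labels name Tophat2 and NGS-QC-Toolkit and the study's methods HISAT2 and FastQC, and the annotation release, strand setting and treatment of multi-mapping reads are not given in the sources used here, so overlapping genes may share reads. Rows of 92 ERCC spike-ins and a nameless row that equalled its column total (100% of it) were kept out of library sizes and tests. Of the 54525 gene rows, 99.9% matched GENCODE M21 (GRCm38), used for positions and exonic length.

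Starting from these counts, edgeR 4.0.16 under R 4.3.3 gave TMM factors, CPM and quasi-likelihood tests for the 16290 genes that filterByExpr kept, with Benjamini-Hochberg adjustment over all of them. The standard error of a log2 fold change was its size over the root of the F statistic. Replicates of a stage differed by more than counting noise (a chi-square between 2.28 and 3.71 per degree of freedom), so each library counted as 1 sample. Alternatives were DESeq2 1.42.0, upper-quartile, total-count and ERCC scaling, no filter, a floor of 10 counts for all libraries, omission of each library in turn, and the replicate number as a block. The edgeR test with TMM and DESeq2 were first checked on simulated counts, in which far fewer genes changed than passed the threshold here. The other alternatives were not checked in this way.

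The members and lists were chosen with earlier results of these data known. Named are all members, up to 4 genes per list with the largest change past the threshold, every gene of lists of up to 3, and the 3 genes nearest to the member that changed most. *Casp9*, *Cycs*, *Htra2*, *Huwe1*, *Tradd*, *Trp53* and genes too low to test are named outside this rule, chosen after their values were seen. Genes with at most 3 counts were taken as not detected, a limit for counting error only. The study's other assays were not analysed here, and some genes are not reported here.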

Additional observations from a re-analysis of the deposited data

How the results depend on the processing

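The count of 7 higher and 2 lower members, and the direction and call of each of the 9, were the same with DESeq2, upper-quartile normalisation, total counts, no filter, a floor of 10 counts for all libraries and the 6 fits that each left out 1 library. Over those 6 fits the log2 fold change ran from 0.23 to 0.32 for *Bcl2*, from 0.41 to 0.50 for *Bbc3*, from -0.65 to -0.56 for *Bax* and from -1.21 to -1.15 for *Bak1*. Same-numbered libraries of the 2 stages deviated from their stage means with correlations of 0.0329, 0.0645 and 0.0277. These values are low, but every library correlated best with its own number, so they do not settle whether the libraries are paired. The main test left them unpaired. With the replicate block 7 members were higher, 2 lower and 13558 genes past the threshold, against 13510 without it. Scaling to the ERCC spike-ins changed most: 5559 genes passed, 1813 as higher and 3746 as lower. Of the members 0 were higher and 1 was lower, and the signs of *Bcl2* (-0.27) and *Bbc3* (-0.10) turned. *Bcl2l1*, *Mcl1*, *Bax*, *Bcl2l11*, *Bid* and *Pmaip1* kept their direction without passing the threshold, with log2 fold changes of 1.05, 0.27, -1.19, 0.33, 1.04 and 0.39 in that order and adjusted p from 0.065 (*Bax*) to 0.71 (*Mcl1*) in edgeR's test. At an unadjusted p under 0.05, 7048 genes passed with this scaling. With the longest transcript as length the pro-survival share of the members' TPM was 26.8% at D0 and 45.0% at D5. Counts per gene do not separate splice forms, and transcripts say nothing of protein.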
